A study of Homo sapiens with 12 samples.

Results

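Interferon response genes were followed in 4 lines of OCI-Ly7, a B cell line established from a diffuse large B-cell lymphoma. The set holds 40 named genes of the 28278 in the count table: genes that interferon switches on or that carry its signal, among them the 3 inducible catalytic subunits of the proteasome. They were listed by name, with no threshold on measured values, but with earlier results of these data known. The wild type carried neither of the changes made in the study. The EZH2 mutant carried EZH2 Y646N, a gain-of-function form of the histone methyltransferase of Polycomb repressive complex 2. The KMT2D mutant was kmt2d-/-, which removes a methyltransferase that marks enhancers. The double mutant was kmt2d-/- with EZH2 Y646N. All mutants were made by CRISPR in OCI-Ly7, and the labels list no treatment, so no interferon was added as far as they say. Whether a mutant line is 1 clone or a pool is not given in the sources used here. RNA was counted by MARS-seq, a barcoded RNA-seq method. There were 3 libraries for the wild type, the KMT2D mutant and the double mutant, and 2 for the EZH2 mutant.

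Interferons are secreted proteins that cells release on sensing viral nucleic acid. Type I interferon activates the kinases JAK1 and TYK2 at its receptor, and a complex that holds STAT2 and IRF9 then binds interferon-stimulated response elements (ISREs) in the promoters of its targets, and other interferon regulatory factors bind related sites. Interferon gamma works mainly through gamma-activated sites (GAS). The products block virus entry, replication and release, or change how antigen is cut for presentation. Lymphoid cells are known to make immunoproteasomes without any added interferon.

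Most promoter windows of the set held letters of the ISRE type, and the 4 below are shown because their genes had the smallest adjusted p among those that hold an ISRE-type match and changed. RefSeq windows of 300 bases (250 before the transcription start and 50 after it, GRCh38.p14) were found for 32 of the 40 genes. The ISRE-type motif searched was GAAA, any 2 bases and GAAA again, and the GAS-type motif TTCNNNGAA, each on both strands, with overlapping matches counted. An ISRE-type match lay in a window of 23 of the 32 genes (71.9%), against 4.38% of the 27305 gene symbols in the promoter table. GAS-type matches were in 10 of the 32 (31.2%), against 9.38%. Capitals mark the ISRE-type matches. The MX1 window is chr21:41420308-41420607 on the plus strand, the first listed of the gene's windows. ISG15 is at chr1:1013247-1013546 on the plus strand, BST2 at chr19:17405581-17405880 on the minus strand, and PSMB10 at chr16:67936801-67937100 on the minus strand.
MX1: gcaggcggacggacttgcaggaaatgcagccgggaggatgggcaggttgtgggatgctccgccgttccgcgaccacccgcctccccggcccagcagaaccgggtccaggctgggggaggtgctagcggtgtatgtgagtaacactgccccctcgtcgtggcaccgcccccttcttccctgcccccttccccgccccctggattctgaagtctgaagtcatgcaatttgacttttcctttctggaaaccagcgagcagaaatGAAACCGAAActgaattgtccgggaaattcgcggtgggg
ISG15: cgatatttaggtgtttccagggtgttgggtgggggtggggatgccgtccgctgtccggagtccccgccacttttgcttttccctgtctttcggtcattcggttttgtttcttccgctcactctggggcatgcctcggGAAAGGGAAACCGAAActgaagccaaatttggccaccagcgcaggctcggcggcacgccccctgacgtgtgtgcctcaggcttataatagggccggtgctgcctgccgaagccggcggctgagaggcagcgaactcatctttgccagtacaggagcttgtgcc
BST2: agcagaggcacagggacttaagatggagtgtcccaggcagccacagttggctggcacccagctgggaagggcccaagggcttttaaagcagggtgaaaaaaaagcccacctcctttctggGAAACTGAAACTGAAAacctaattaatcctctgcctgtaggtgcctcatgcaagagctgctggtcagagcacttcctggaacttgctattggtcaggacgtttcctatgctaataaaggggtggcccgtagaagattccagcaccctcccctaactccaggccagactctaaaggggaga
PSMB10: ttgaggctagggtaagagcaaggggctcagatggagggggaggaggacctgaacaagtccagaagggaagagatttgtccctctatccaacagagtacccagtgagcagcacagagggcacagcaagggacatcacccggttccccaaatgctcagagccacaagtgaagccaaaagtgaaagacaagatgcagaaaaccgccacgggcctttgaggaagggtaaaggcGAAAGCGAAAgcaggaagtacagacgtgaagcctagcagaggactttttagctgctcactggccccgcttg
In ISG15 and BST2 the capitals cover 2 overlapping matches, which begin 113 and 107 bases before the start in ISG15 and 130 and 124 before it in BST2. PSMB10 has 1 match, 21 bases before its start, and MX1 has 1 that begins 11 bases after it. A match did not set the genes that changed apart: 8 of the 12 with a window that changed against wild type held one, 6 of the 9 tested without a change, and 9 of the 11 too low to test. The 8 include OAS3 and IFIT3, whose calls support nothing for reasons given below. These matches describe letters and are not shown to be bound.

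Library totals ran from 1118710 to 3107871 counts, with EZH2 mutant replicate 1 the shallowest, so 3 counts correspond to between 0.965 and 2.68 CPM (counts scaled to a common library total). Genes with enough counts, about 4.62 CPM in 2 or more libraries, numbered 8813 and were tested with edgeR's quasi-likelihood model over all 11 libraries. A gene is called changed at a Benjamini-Hochberg adjusted p below 0.05 over those 8813. Levels are given as normalised CPM (scaled by TMM factors), errors as SD, and differences as log2 fold changes with their standard error (SE). EZH2 RNA lay between 54.1 and 91.0 normalised CPM across all libraries. KMT2D RNA was at 27.1 to 44.0 in the wild type, 19.4 to 41.1 in the EZH2 mutant, 34.3 to 40.9 in KMT2D mutant libraries and 33.6 to 65.4 in double mutant libraries, so the kmt2d-/- lines showed no lower KMT2D RNA. The smallest adjusted p of either gene against wild type was 0.235, and counts of RNA ends cannot check a point mutation or a distant lesion. All 8 B cell markers were tested, and their summed level was 13459 to 23298 CPM. Summed markers of other cells stayed below 5 CPM: T and NK cells 0 to 4.23 (CD3D and CD2 at 0 everywhere), myeloid cells 0.406 to 4.58 (CSF1R and MPO at 0), plasmacytoid dendritic cells 0 to 3.21 (LILRA4 and IL3RA at 0), and fibroblast or epithelial cells 0 to 1.41. In such bulk RNA, fewer expressing cells and less RNA per cell cannot be told apart.

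The members ranged from abundant to undetected. Of the 40 genes 26 were tested, and 16 of those reached the filter level in all 11 libraries. The other 14 had too few counts, 5 of them none. Summed over the set, RNA was 2539 ± 94.1 CPM of the library total (n = 3) in the wild type, 3171 ± 152 (n = 2) in the EZH2 mutant, 2981 ± 108 in KMT2D mutant libraries and 3224 ± 86.3 in double mutant libraries (n = 3 each), a description with no test. No library of a mutant line lay below any wild-type library in this sum. The immunoproteasome subunits made up 1203 ± 61.1 CPM of the wild-type sum.

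The 3 mutant lines differed in how many tested members changed against wild type, as they did in how many of all genes changed. In the EZH2 mutant 11 of 26 were called (42.3%), where 32.3% of all tested genes were called. Of these 9 rose and 2 fell, against 17.1% and 15.1% of all genes, and 5 rose and 4 fell with upper-quartile scaling. Without EZH2 mutant replicate 1, the shallowest library, 6 were called, and without wild type replicate 2, 7. In the KMT2D mutant 3 were called (11.5%), where 7.66% of all genes were called. All 3 rose, against 3.18% of all genes that rose and 4.48% that fell. Without adjustment, 4 members were higher and 1 lower at p below 0.05 in that comparison. The share of all genes at that unadjusted level was not computed, so this count has no background beside it. In the double mutant 10 were called (38.5%), where 23.7% of all genes were called. There 9 rose and 1 fell, against 12.1% and 11.6% of all genes. These counts include OAS3 in the EZH2 mutant and IFIT3 in the double mutant. Both passed the filter only through lines where they are high, so their calls support nothing. Median differences over the 26 were 0.14, 0.21 and 0.31 on the log2 scale in the 3 lines, and over all genes -0.04, 0.00 and -0.01; with upper-quartile scaling the EZH2 mutant median of the 26 changed sign to -0.03 while that of all genes moved to -0.20. That median also rested on single libraries: it was 0.02 without EZH2 mutant replicate 1, 0.31 without EZH2 mutant replicate 2, 0.29 when wild type replicate 1 was left out and 0.08 when replicate 3 was, and -0.10 over 35 members without a filter. In the KMT2D mutant it stayed between 0.16 and 0.25 and in the double mutant between 0.20 and 0.36 over all settings. The heat map of all tested members shows these shifts by library. The 3 comparisons share the wild-type libraries, so their calls are not independent of each other.

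**Figure D1:**
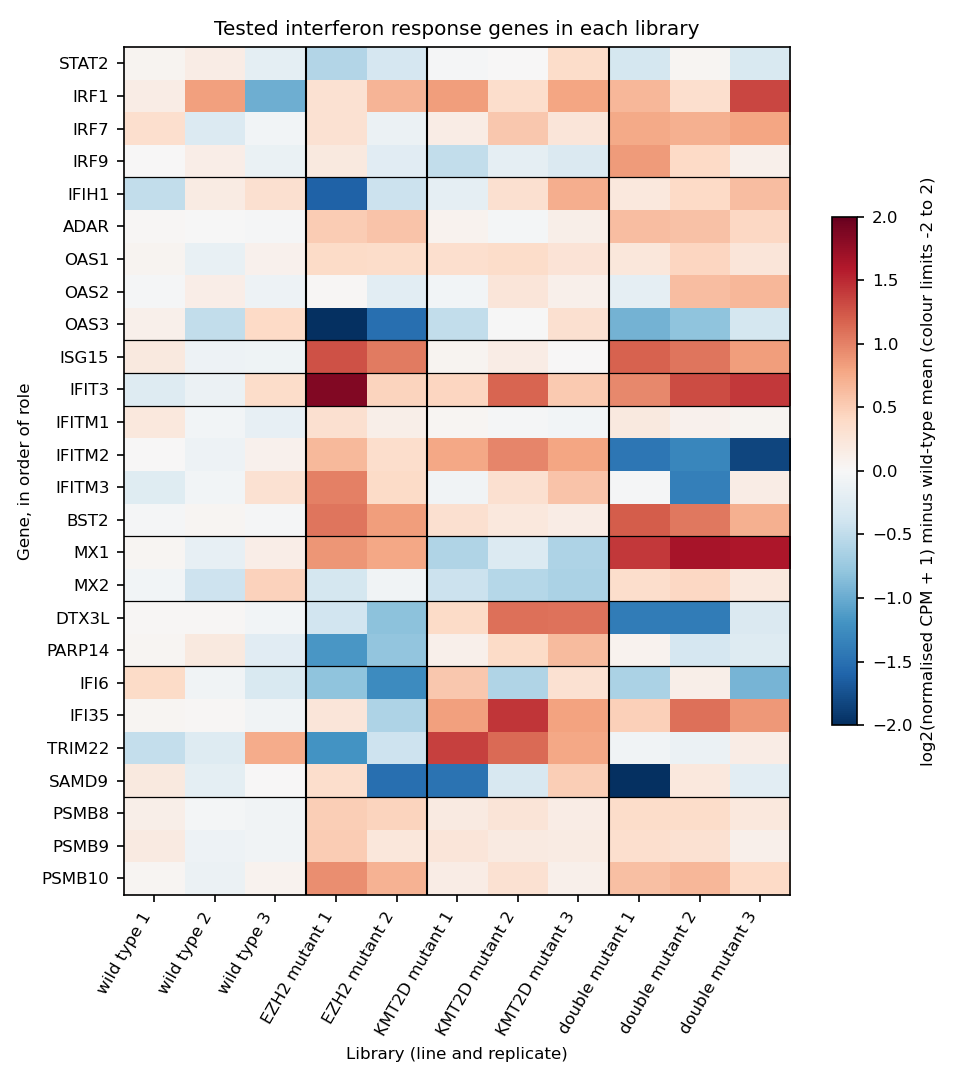
Each row is 1 of the 26 tested genes in order of role and each column 1 of the 11 libraries. Colour is the log2 of normalised CPM plus 1 minus the wild-type mean, with limits at -2 and 2; ISG15, BST2 and MX1 are red in the 5 libraries with mutant EZH2, and IFITM2 is deep blue in the 3 double mutant libraries.

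Abundance moved with these counts. In the EZH2 mutant, 9 of the 12 members in the upper abundance class (mean of at least 56.0 CPM) were higher, as were 33.9% of all genes in that class. Of the 12 members in the lower class (1.56 to 13.9 CPM) 2 were lower, OAS3 among them, against 16.2% of all genes there. In the double mutant the upper class held 7 members that rose, against 24.0% of its genes, and 1 that fell, against 8.68%. With the abundance trend removed, 4 of the 11 calls in the EZH2 mutant were kept (ISG15, BST2, MX1 and PSMB10), 7 were lost, and 2 members gained a call (IFIT3 higher, STAT2 lower). In the double mutant 9 of the 10 calls were kept, and that of PSMB8 was lost.

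Among the signalling and transcription factors, IRF7 was the member called against wild type. It encodes the factor that drives transcription of type I interferon genes. Wild-type libraries held 73.8, 48.4 and 56.1 normalised CPM, EZH2 mutant libraries 72.5 and 53.9, KMT2D mutant libraries 65.1, 85.5 and 69.3, and double mutant libraries 99.4, 96.4 and 101.4. All 3 double mutant libraries stood above every other library, while the single mutants overlapped wild type. The double mutant rose by 0.75 (SE 0.17, adjusted p = 0.0035), a 1.68-fold difference. IRF9, the DNA-binding partner of STAT2, was between 8.48 and 23.1 in all libraries and was not called against wild type. It was higher in the double mutant than in the KMT2D mutant, by 0.90 (SE 0.27, adjusted p = 0.013), and that call was lost without KMT2D mutant replicate 1 or double mutant replicate 1 (adjusted p = 0.068 to 0.12). IRF9 also shares its last 300 bases and its strand with the annotated gene AL136295.5, so its counts are uncertain. STAT2, between 37.8 and 74.2, and IRF1, between 1.53 and 11.6, were not called in any comparison of the main fit. STAT2 was called lower in the EZH2 mutant with upper-quartile scaling and with the abundance trend removed. Both settings also called it lower in the double mutant than in the KMT2D mutant. IRF1 gained a call in the double mutant against wild type after thinning to equal depth.

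Of 5 tested RNA sensing and editing genes, 2 rose and 1 fell in the EZH2 mutant (60% called), where 32.3% of all tested genes were called. The calls of OAS1 and OAS3 have limits given below. ADAR, the enzyme that edits adenosine to inosine in double-stranded RNA, was at 185, 179.7 and 179 normalised CPM in the wild type and 258 and 268 in the EZH2 mutant. It was at 191, 176 and 196 in KMT2D mutant libraries and 279, 273 and 240.3 in double mutant libraries. The 5 libraries with mutant EZH2 lay above the 6 without it. ADAR rose by 0.54 in the EZH2 mutant (SE 0.13, adjusted p = 0.0038) and by 0.54 in the double mutant (SE 0.12, adjusted p = 0.0021). The first call was lost with the abundance trend removed (log2 0.29, adjusted p = 0.072) and after thinning to equal depth (log2 0.32, adjusted p = 0.13).

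The oligoadenylate synthetases make the messenger that activates RNase L, and they did not move as a family. OAS1 was at 141, 122 and 144 normalised CPM in the wild type, 177 and 176 in the EZH2 mutant, 171, 176 and 164 in KMT2D mutant libraries and 158, 183 and 160.4 in double mutant libraries. Every mutant library was above every wild-type library, by 0.38 (adjusted p = 0.044), 0.33 (0.12) and 0.30 (0.086) in the 3 lines. The EZH2 mutant call was lost in 19 of 21 alternative settings, among them leaving out any 1 of 10 libraries (all but wild type replicate 1; adjusted p = 0.050 to 0.21). OAS2, between 62.8 and 116, was not called in any comparison of the main fit. Without double mutant replicate 1 it was called higher in the double mutant than in each of the other lines. OAS3 was rare, with 9, 9 and 17 counts in the wild type, 0 and 2 in the EZH2 mutant, 10, 7 and 16 in KMT2D mutant libraries and 4, 3 and 6 in double mutant libraries. Its summed counts gave an 8.24-fold lower level in the EZH2 mutant (95% counting interval 2.12 to 70.7). The edgeR fit gave -2.76 (SE 0.84, adjusted p = 0.017). OAS3 reached the filter level in 2 wild-type and 2 KMT2D mutant libraries and in no library with mutant EZH2. Since it was testable only through lines where it is high, its call supports nothing. That call was lost without wild type replicate 3 or EZH2 mutant replicate 1 (adjusted p = 0.054 to 0.093). IFIH1, the RNA sensor MDA5, was at 2.04 to 14.5 and was not called.

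ISG15, a ubiquitin-like protein conjugated to other proteins after interferon, had the largest called rise of the members in the EZH2 mutant. Its wild-type libraries were at 215, 176 and 177 normalised CPM and its KMT2D mutant libraries at 195, 209 and 190.4. The EZH2 mutant libraries were at 459.6 and 387, and the double mutant libraries at 427, 398 and 336. All 5 libraries with mutant EZH2 lay above the 6 without it, with no overlap. The rise was 1.16 (SE 0.14, adjusted p = 1.2e-05, 2.23-fold) in the EZH2 mutant and 1.03 (SE 0.13, adjusted p = 1.4e-05, 2.05-fold) in the double mutant. Against the KMT2D mutant, the double mutant was higher by 0.96 (SE 0.13, adjusted p = 1.2e-05). Of its pathway, HERC5, a ligase for ISG15, had 4 counts in all libraries, and USP18, the protease that removes ISG15, had none.

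BST2 encodes tetherin, which holds budding virus particles at the cell surface, and it split by EZH2 genotype in the same way. The wild type was at 154, 161 and 155 normalised CPM, the KMT2D mutant at 195, 181 and 173, the EZH2 mutant at 329.9 and 279, and the double mutant at 365, 326 and 257. The mutant-EZH2 libraries were again above all others, and the KMT2D mutant libraries were all above wild type without a call (log2 0.23, adjusted p = 0.36). BST2 rose by 0.95 (SE 0.15, adjusted p = 0.00011) in the EZH2 mutant and by 1.01 (SE 0.13, adjusted p = 2.6e-05) in the double mutant.

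**Figure D2:**
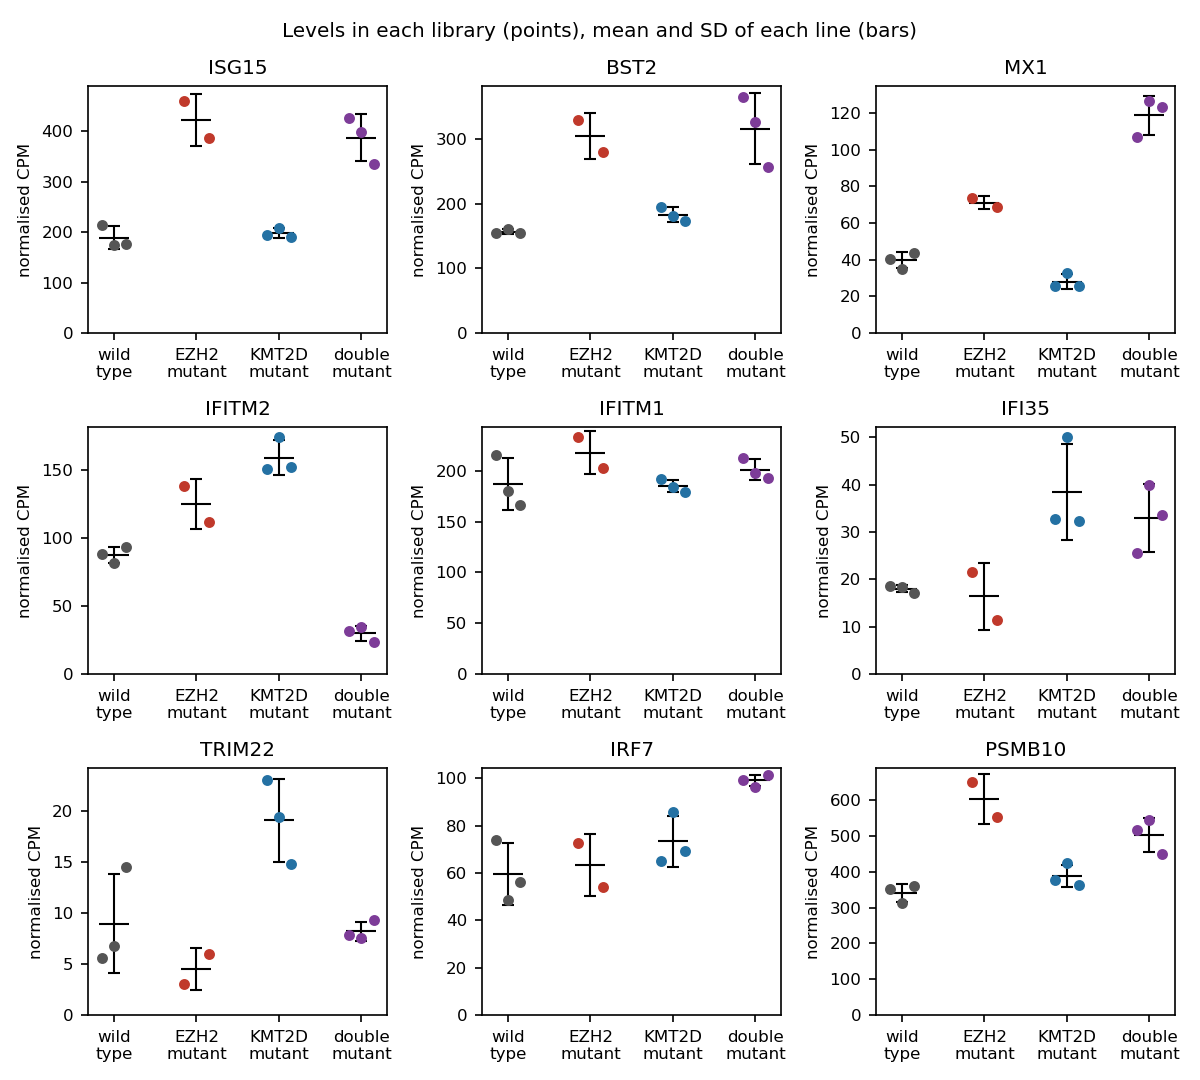
Points are libraries and bars the mean and SD of each line (3 libraries, 2 for the EZH2 mutant), in normalised CPM on axes that start at 0. ISG15 and BST2 split by EZH2 genotype, MX1 and IFITM2 take 4 separate levels, and IFITM1 overlaps the wild type in every mutant line.

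IFITM2 gave the largest called fall of the set against wild type in the double mutant. The IFITM proteins sit in membranes and hinder the fusion of viruses with the cell. IFITM2 was at 87.9, 81.5 and 93.1 normalised CPM in the wild type, 138 and 112 in the EZH2 mutant, 151, 174 and 152 in KMT2D mutant libraries and 31.5, 34.6 and 23.7 in double mutant libraries. No 2 lines overlapped: both single mutants stood above wild type and the double mutant below it. The KMT2D mutant rose by 0.86 (SE 0.14, adjusted p = 0.00067), and the double mutant fell by 1.55 (SE 0.17, adjusted p = 2.1e-06), which is 0.341 of the wild-type level. In the EZH2 mutant the rise was 0.50 (SE 0.17, adjusted p = 0.027), a call lost in 11 of 21 alternative settings. Of single libraries, leaving out wild type replicate 2, EZH2 mutant replicate 1, or KMT2D mutant replicate 1 or 3 ended it (adjusted p = 0.052 to 0.20).

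The neighbouring gene did not take part in that fall. IFITM1 was at 216, 179.7 and 166 normalised CPM in the wild type, 233 and 203 in the EZH2 mutant, 192, 184 and 179 in KMT2D mutant libraries and 212, 197 and 193 in double mutant libraries. It was not called in any comparison, and its double mutant difference from wild type was 0.10 (SE 0.13). IFITM3 had between 1 and 15 counts a library and was not called. The summed level of the 3 genes was 278 ± 24.5 in the wild type, 349 ± 42.0 in the EZH2 mutant (n = 2), 348 ± 12.8 in KMT2D mutant libraries and 234 ± 13.4 in double mutant libraries (n = 3 otherwise). IFITM2 was 31.6% of the wild-type sum, 35.7% in the EZH2 mutant, 45.5% in KMT2D mutant libraries and 12.8%  in double mutant libraries. In GENCODE 29 the last 300 bases of IFITM1 also belong to a transcript annotated to IFITM2, which runs through IFITM1, so how the authors' counting divided reads between the pair is uncertain.

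MX1, a dynamin-like GTPase that traps viral nucleocapsids, ordered the 4 lines without overlap. It was at 25.7, 32.7 and 25.5 normalised CPM in the KMT2D mutant, 40.6, 35.2 and 43.5 in the wild type, 73.5 and 68.8 in EZH2 mutant libraries and 107, 127 and 123 in double mutant libraries. The EZH2 mutant rose by 0.83 (SE 0.18, adjusted p = 0.0016, 1.78-fold) and the double mutant by 1.58 (SE 0.15, adjusted p = 7.1e-07, 2.98-fold). In the KMT2D mutant the difference was -0.52 (SE 0.17, adjusted p = 0.063) and was not called. Its paralogue MX2 was low, between 5.71 and 13.4 in all libraries with the 3 KMT2D mutant libraries lowest. MX2 was not called against wild type. It was higher in the double mutant than in the KMT2D mutant by 0.95 (SE 0.32, adjusted p = 0.022), a call lost without any 1 of the 3 KMT2D mutant libraries or double mutant replicate 1 or 2 (adjusted p = 0.052 to 0.089).

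The IFIT proteins bind viral RNA, and their genes were hardly expressed. IFIT3 had 2, 4 and 6 counts in the wild type, 8 and 5 in the EZH2 mutant, 8, 7 and 7 in KMT2D mutant libraries and 8, 7 and 10 in double mutant libraries. Its rise in the double mutant was 1.56 (SE 0.55, adjusted p = 0.045). IFIT3 reached the filter level in 2 double mutant, 1 KMT2D mutant and 1 EZH2 mutant library and in no wild-type library. Since it was testable only through the mutant lines, this call supports nothing. The call was lost in 14 of 18 settings, including without any 1 wild-type, KMT2D mutant or double mutant library (adjusted p = 0.054 to 0.14). PARP14, an ADP-ribosyltransferase of macrophage and B cell signalling, was at 13.0, 14.6 and 10.7 normalised CPM in the wild type, 5.11 and 6.93 in the EZH2 mutant, 13.6, 16.7 and 20.2 in KMT2D mutant libraries and 13.3, 9.79 and 10.4 in double mutant libraries. The EZH2 mutant alone stood below wild type without overlap, and it fell by 1.02 (SE 0.36, adjusted p = 0.037). Leaving out wild type replicate 1 or 2 or either EZH2 mutant library ended that call (adjusted p = 0.054 to 0.18). DTX3L, a ubiquitin ligase that pairs with PARP9, passed the filter through the KMT2D mutant. Its counts there were 8, 7 and 12, against 0, 0 and 2 in the double mutant, a ratio of 10.3 with a 95% counting interval of 2.58 to 89.0. Since it was testable only because it is high in the KMT2D mutant, its call between these lines supports nothing. DTX3L and PARP9 overlap on opposite strands, and the strand used in counting is not given in the sources used here.

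IFI35 and TRIM22 were the members that rose in the KMT2D mutant beside IFITM2. IFI35, an interferon-induced protein that binds NMI, was at 18.6, 18.3 and 17.2 normalised CPM in the wild type, 21.4 and 11.4 in the EZH2 mutant, 32.7, 50.1 and 32.4 in KMT2D mutant libraries and 25.6, 39.9 and 33.6 in double mutant libraries. All 6 libraries of the kmt2d-/- lines lay above the other 5. The rise was 1.06 (SE 0.24, adjusted p = 0.0071) in KMT2D mutant libraries and 0.85 (SE 0.25, adjusted p = 0.016) in double mutant libraries. After thinning to equal depth both calls were lost (edgeR adjusted p = 0.21 and 0.29). The second call was also lost without wild type replicate 2 or 3 or double mutant replicate 2 or 3 (adjusted p = 0.050 to 0.084).

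TRIM22, a ubiquitin ligase that restricts viruses, was at 5.64, 6.77 and 14.5 normalised CPM in the wild type, 3.06 and 5.94 in the EZH2 mutant, 23.0, 19.4 and 14.8 in KMT2D mutant libraries and 7.87, 7.53 and 9.27 in double mutant libraries. It was high in the KMT2D mutant alone, by 1.06 over wild type (SE 0.31, adjusted p = 0.042). Wild type replicate 3 nearly reached the lowest of those libraries. The call was lost without wild type replicate 1 or 2, any KMT2D mutant library, or double mutant replicate 1 or 2 (adjusted p = 0.051 to 0.25). From the KMT2D mutant to the double mutant, TRIM22 fell by 1.21 (SE 0.34, adjusted p = 0.0074), or with adjusted p = 0.052 without KMT2D mutant replicate 1. IFI6, between 3.46 and 14.5, and SAMD9, between 0.984 and 14.8, were not called in any comparison of the main fit. IFI6 was called lower in the EZH2 mutant with upper-quartile scaling, without a filter and without KMT2D mutant replicate 2. Between the double and KMT2D mutants it gained a call without replicate 2 of either line.

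**Figure D3:**
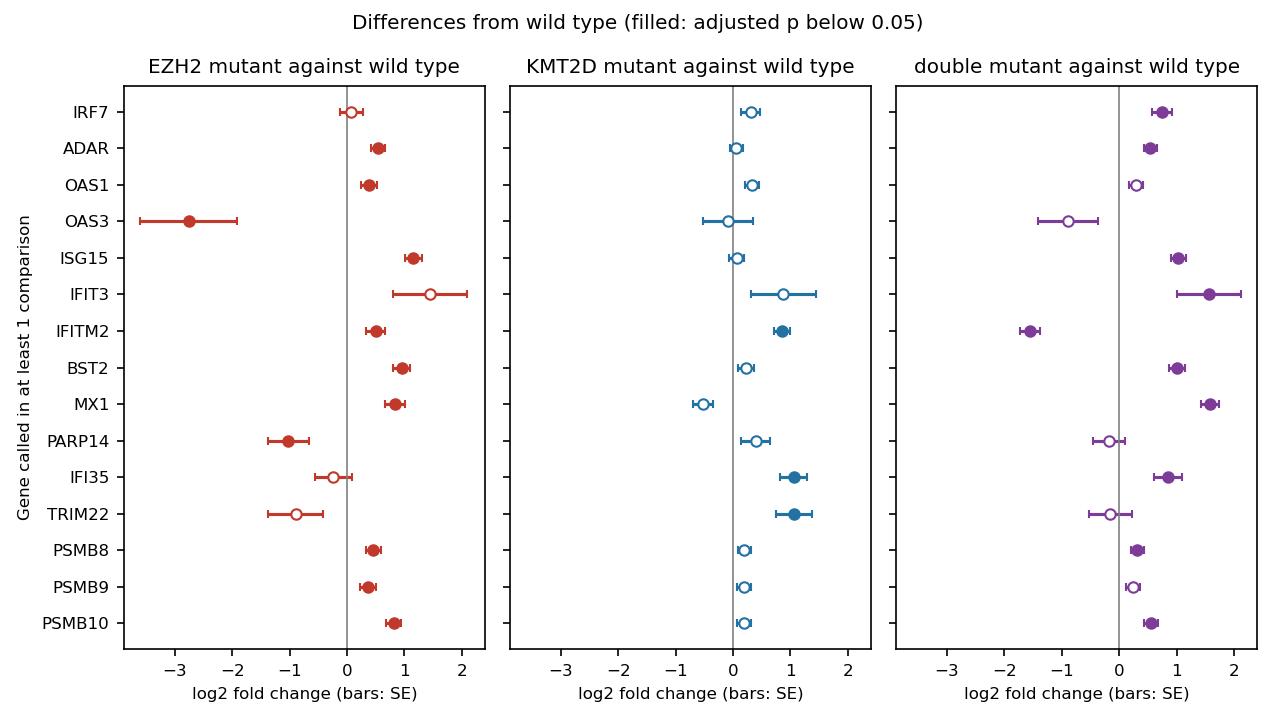
Log2 fold changes against wild type, with SE bars, for the 15 genes called in at least 1 mutant line; filled points have an adjusted p below 0.05. Filled points lie to the right of 0 except OAS3 and PARP14 in the EZH2 mutant and IFITM2 in the double mutant.

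The immunoproteasome is the form of the proteasome in which PSMB8, PSMB9 and PSMB10 replace PSMB5, PSMB6 and PSMB7, and which favours peptides for MHC class I. All 3 inducible subunits were called higher in the EZH2 mutant, as were 17.1% of all tested genes and 33.9% of those in the upper abundance class. PSMB10 was at 352, 313 and 359.8 normalised CPM in the wild type, 652 and 554 in the EZH2 mutant, 376, 424 and 364 in KMT2D mutant libraries and 516, 544 and 451 in double mutant libraries. It rose by 0.81 (SE 0.14, adjusted p = 0.00019) in the EZH2 mutant and by 0.56 (SE 0.12, adjusted p = 0.0027) in the double mutant, with the mutant-EZH2 libraries above all others. PSMB10 shares its last 300 bases and strand with the annotated gene AC040162.1, which leaves its count uncertain.

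PSMB8 and PSMB9 lie side by side on chromosome 6 and overlap on opposite strands. PSMB8 was at 466, 417 and 409 normalised CPM in the wild type, 604 and 583 in the EZH2 mutant, 486, 513 and 478 in KMT2D mutant libraries and 553, 556 and 497 in double mutant libraries. Every mutant library was above every wild-type library. Its rise was 0.46 (SE 0.12, adjusted p = 0.0083) in the EZH2 mutant and 0.31 (SE 0.11, adjusted p = 0.048) in the double mutant. The first call was lost with upper-quartile scaling (log2 0.29, adjusted p = 0.053) and with the abundance trend removed (log2 0.21, adjusted p = 0.14). The second was lost in 17 of 21 settings, among them leaving out wild type replicate 2 or 3 or any KMT2D mutant or double mutant library (adjusted p = 0.061 to 0.19).

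PSMB9 had the smallest difference of the 3 in both lines with mutant EZH2. Its wild-type libraries were at 428, 352 and 361 normalised CPM and its EZH2 mutant libraries at 537 and 442. The KMT2D mutant was at 446, 429.5 and 423 and the double mutant at 476, 469 and 408, both overlapping wild type. The EZH2 mutant rise of 0.36 (SE 0.14, adjusted p = 0.0498) was lost in 19 of 21 settings. Those include leaving out any 1 library except wild type replicate 1 and EZH2 mutant replicate 2 (adjusted p = 0.061 to 0.34).

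PSMB5, PSMB6 and PSMB7 rose as well in both lines with mutant EZH2, so the balance of the 2 forms was compared within each library. The ratio of PSMB9 to PSMB6 counts was 1.30, 1.24 and 1.26 in the wild type and 0.960 and 0.966 in the EZH2 mutant. It was 1.58, 1.38 and 1.496 in KMT2D mutant libraries and 1.04, 1.06 and 0.945 in double mutant libraries. The 5 mutant-EZH2 libraries had the lowest ratios and the 3 KMT2D mutant libraries the highest, with no overlap. Each difference from wild type gave p = 0.1 in a two-sided exact permutation test, the smallest these group sizes allow, and 0.3 adjusted over the 9 ratio comparisons. PSMB8 to PSMB5 was 3.38 ± 0.625 in the wild type, 2.77 ± 0.257 (n = 2) in the EZH2 mutant, 3.35 ± 0.718 in KMT2D mutant libraries and 2.65 ± 0.387 in double mutant libraries, with exact p between 0.2 and 1. PSMB10 to PSMB7 was 1.13 ± 0.153, 1.13 ± 0.238 (n = 2), 1.27 ± 0.184 and 1.18 ± 0.0435 in the same order, with exact p between 0.5 and 1. These ratios compare counts of different transcripts, so only their differences between lines can be read.

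**Figure D4:**
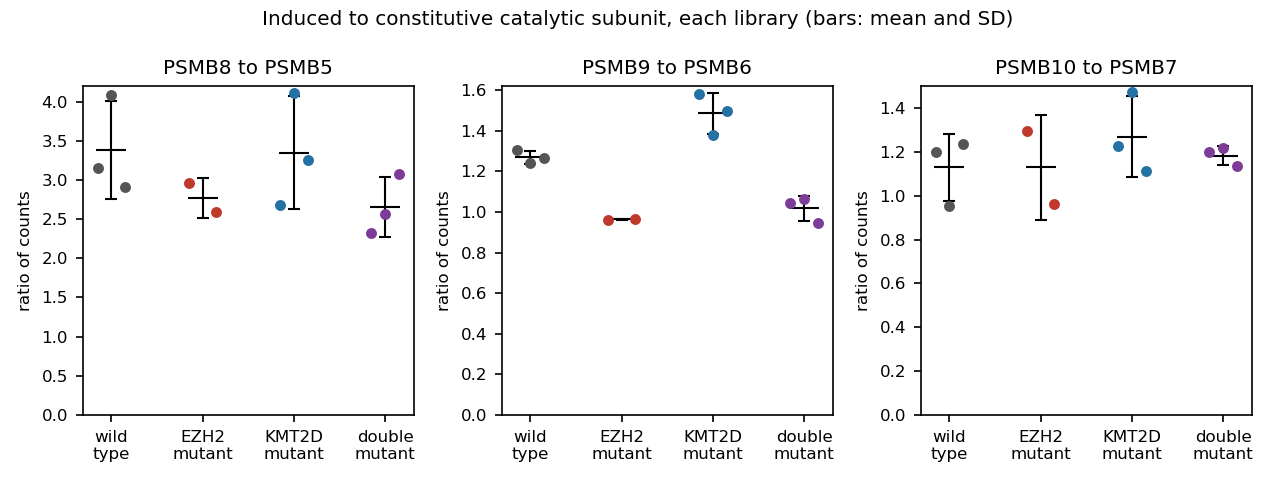
Ratio of counts of each inducible proteasome subunit to the subunit it replaces, with libraries as points and mean and SD of each line as bars, on axes that start at 0. The PSMB9 to PSMB6 ratio is near 1 in the 5 mutant-EZH2 libraries and between 1.24 and 1.58 in the others, while the other ratios overlap between lines.

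The double mutant was then set against each single mutant. Against the EZH2 mutant, 2 of 26 members were called (7.69%), where 2.29% of all genes were called, 0.715% higher and 1.58% lower. MX1 was higher by 0.74 (SE 0.17, adjusted p = 0.026) and IFITM2 lower by 2.05 (SE 0.18, adjusted p = 8.2e-07), 0.241 of the EZH2 mutant level. Between 1 and 4 members were called when 1 library was left out: 1 without EZH2 mutant replicate 2 or double mutant replicate 2 or 3, and 4 without double mutant replicate 1. The MX1 call was lost without either EZH2 mutant library or double mutant replicate 2 or 3 (adjusted p = 0.082 to 0.13). Against the KMT2D mutant, 11 of 26 were called (42.3%), where 41.9% of all genes were called (21.2% higher and 20.8% lower), so the share is at the background. The split was 8 higher and 3 lower, or 5 and 5 with upper-quartile scaling and 6 and 4 with the abundance trend removed. Without KMT2D mutant replicate 1 the calls numbered 5, and without KMT2D mutant replicate 3 or double mutant replicate 1 they numbered 7. Of the 8 that rose, MX1 was the largest at 2.10 (SE 0.16, adjusted p = 1.1e-08, 4.29-fold), followed by ISG15, MX2, IRF9, BST2, ADAR, IRF7 and PSMB10. IFITM2 fell by 2.41 (SE 0.16, adjusted p = 2.0e-09), to 0.188 of the KMT2D mutant level, beside TRIM22 and DTX3L. The DTX3L call supports nothing, since that gene was testable only because it is high in the KMT2D mutant. The calls of IRF7 and PSMB10 were each lost without KMT2D mutant replicate 1 or 3 or double mutant replicate 1 or 2, and that of IRF7 also without wild type replicate 3 or double mutant replicate 3 (adjusted p = 0.054 to 0.19 over these).

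The interaction asks whether the effect of one mutation differed between cells with and without the other. It was called for 2 of the 26 members (7.69%), where 3.02% of all genes were called, 1.5% positive and 1.52% negative. IFITM2 had an interaction of -2.91 (SE 0.23, adjusted p = 2.7e-07): the kmt2d-/- genotype went with a rise of 0.86 beside normal EZH2 and a fall of 2.05 beside mutant EZH2. For MX1 it was 1.27 (SE 0.24, adjusted p = 0.0046), with -0.52 for kmt2d-/- beside normal EZH2 and 0.74 beside mutant EZH2. The 24 other tested members had no called interaction, which does not show that their effects were equal. For ISG15 the interaction was -0.19 with a 95% interval of -0.57 to 0.19, and for BST2 -0.17 with -0.56 to 0.23.

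The EZH2 mutation was measured in 2 backgrounds that share no library, against wild type and against the KMT2D mutant. Its effect had the same sign in both for 19 of 26 members (73.1%), as for 78.1% of all genes, and Pearson's r across the 26 was 0.501, against 0.649 across all 8813. For kmt2d-/-, measured in wild-type and in EZH2 mutant cells, 14 of 26 had the same sign (53.8%), as 56.0% of all genes, with r of -0.241 against 0.0993. Genes in 1 library share its depth and are not independent replicates, so these are descriptions.

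**Figure D5:**
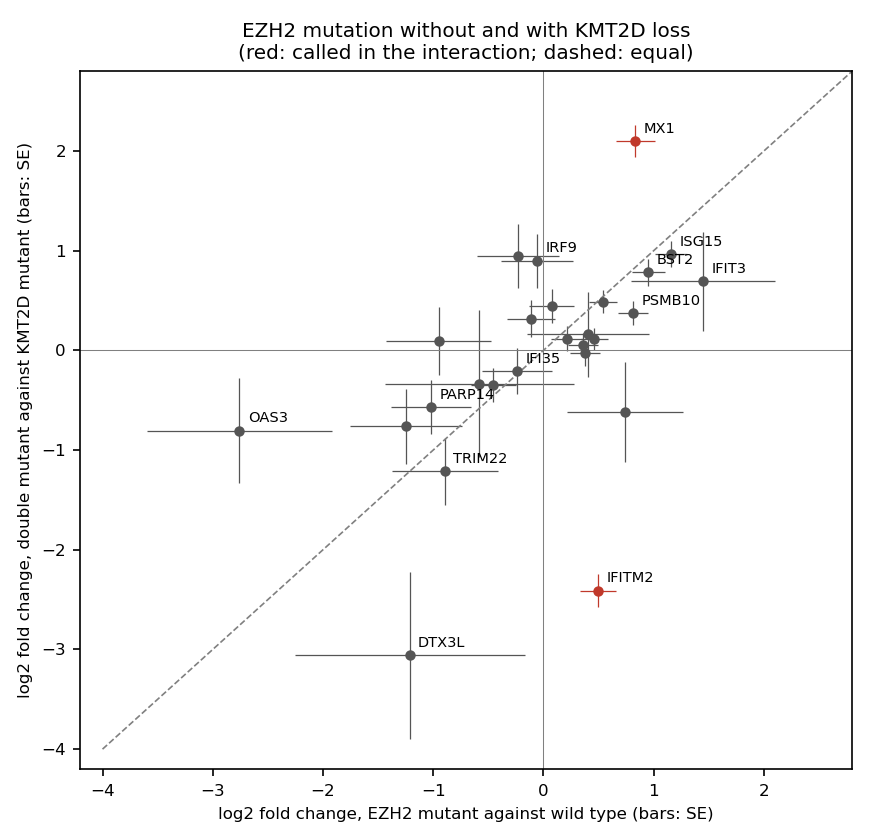
Each point is 1 of the 26 tested genes, with SE bars; the x axis is the log2 fold change of the EZH2 mutant against wild type and the y axis that of the double mutant against the KMT2D mutant. The dashed line marks equal effects; MX1 lies above it and IFITM2 below it, both in red for a called interaction.

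The 14 untested members were close to silent in all 4 lines. USP18, IFIT1, GBP1, IFI44 and IFI44L had 0 counts among 22567667, which allows up to 0.133 CPM over all libraries pooled. EIF2AK2, the kinase PKR that halts translation, had 47 counts in all, at most 8 in a library, and IFI27 had 43, at most 9. PARP9 had 38 and XAF1, an antagonist of apoptosis inhibitors, had 18. The totals of IFIT2, SAMD9L and OASL were 14, 11 and 9, and those of HERC5 and IFIT5 were 4 and 1. XAF1 had 11 counts in the KMT2D mutant and 1 in the wild type, a ratio of 11.1 with a 95% counting interval of 1.61 to 477 that covers counting error only. XAF1 overlaps the annotated gene PRAL on the opposite strand.

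The ligands themselves were almost unseen. Of 14 interferon genes listed, 12 had no count in any library, and IFNG and IFNL3 had 1 each. JAK1, the receptor kinase upstream, was present. It was at 20.7 ± 6.84 normalised CPM in the wild type, 4.72 ± 5.22 (n = 2) in the EZH2 mutant, 36.2 ± 5.65 in KMT2D mutant libraries and 10.3 ± 8.27 in double mutant libraries (n = 3 otherwise). Its fall of 1.85 in the EZH2 mutant (SE 0.66, adjusted p = 0.0495) was lost in 12 of 21 settings, among them without any wild-type or KMT2D mutant library, EZH2 mutant replicate 1 or double mutant replicate 1.

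Other genes of the pathway came from 8 lists with 129 genes, of which 81 were tested. In the EZH2 mutant 20 rose and 9 fell (35.8% called), in the KMT2D mutant 6 rose and 2 fell (9.88%), and in the double mutant 15 rose and 5 fell (24.7%). Those shares stood beside 32.3%, 7.66% and 23.7% of all genes. Class I presentation and the proteasome activator had 9 tested genes, 4 higher in the EZH2 mutant, 2 in KMT2D mutant libraries and 3 in double mutant libraries. Those are 44.4%, 22.2% and 33.3%, beside the same shares of all genes. PSME2, which forms the PA28 activator cap with PSME1, rose by 1.47 (SE 0.13, adjusted p = 4.5e-07) in the EZH2 mutant and by 1.16 (SE 0.12, adjusted p = 1.6e-06) in the double mutant. PSME1 rose by 0.50 and 0.37, the first call lost without EZH2 mutant replicate 1, the second in 11 of 21 settings, which include 6 single libraries. TAP1, the peptide transporter, rose in all 3 lines, by 0.58, 0.43 and 0.55; the KMT2D mutant call was lost without any KMT2D mutant library or wild type replicate 1 or 2. NLRC5, the activator of class I genes, rose by 0.60 (SE 0.12, adjusted p = 0.0031) in the KMT2D mutant.

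The constitutive and assembly genes of the proteasome had 6 tested, of which 3 rose and 1 fell in the EZH2 mutant and again in the double mutant. That is 66.7% called in each, against 32.3% and 23.7% of all genes. PSMB7 rose by 0.83 and 0.48 and PSMB6 by 0.76 and 0.57 in those lines, while the assembly chaperone PSMG2 fell by 0.87 and 0.64. Among 8 inhibitors of interferon signalling, PTPN6, the phosphatase SHP-1, rose by 1.25 (SE 0.14, adjusted p = 4.7e-06) in the EZH2 mutant and by 0.68 in the double mutant. PTPN11 fell by 1.41 in the EZH2 mutant, a call lost without wild type replicate 2 or either EZH2 mutant library. PIAS3 fell by 0.66 in the KMT2D mutant, lost in 12 of 21 settings, which include 8 single libraries. Of 7 further interferon regulatory factors, IRF4, a factor of B cell differentiation, fell by 0.67 in the EZH2 mutant (lost without EZH2 mutant replicate 1) and by 0.47 in the double mutant (lost without wild type replicate 2). IRF5 rose by 0.74 in the EZH2 mutant, lost in 18 of 21 settings. IRF3 fell by 0.67 in the KMT2D mutant, lost without wild type replicate 1 or KMT2D mutant replicate 1 or 3.

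Nucleic acid sensing had 21 tested genes, of which 6 rose and 2 fell in the EZH2 mutant, 1 rose in the KMT2D mutant, and 3 rose and 2 fell in the double mutant. The shares called were 38.1%, 4.76% and 23.8%, close to the 32.3%, 7.66% and 23.7% of all genes. TLR9, the endosomal receptor for DNA, rose by 1.38 (SE 0.25, adjusted p = 0.00047) in the EZH2 mutant and by 0.69 in the double mutant, the latter lost in 8 of 21 settings, which include 5 single libraries. The Toll-like receptor kinase IRAK1 rose by 1.08 and 0.79. UNC93B1, which carries these receptors to the endosome, rose by 0.85 in the double mutant. TRAF6 had 0 counts in the EZH2 mutant against 30 in wild-type cells, and its call needed EZH2 mutant replicate 2. With the floor of 3 counts in place of 0 this is at least 4.71-fold lower. The exact 95% counting interval, which also covers the error of the 30 counts, starts at 3.60-fold. TRAF6 could pass the filter only through the other lines, so its call supports nothing. TRIM25, the ligase that acts on RIG-I, rose by 1.02 in the KMT2D mutant.

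Of 21 other interferon-stimulated genes tested, 5 rose and 2 fell in the EZH2 mutant, 3 rose in the KMT2D mutant, and 5 rose and 1 fell in the double mutant. The shares called were 33.3%, 14.3% and 28.6%, against 32.3%, 7.66% and 23.7% of all genes. SP110 rose by 0.99 and TRIM14 fell by 0.81 in the EZH2 mutant, both lost without EZH2 mutant replicate 2. SP140, a nuclear body protein of lymphocytes, rose by 1.42 (SE 0.27, adjusted p = 0.0022) in the KMT2D mutant, UBA7, the enzyme that activates ISG15, by 1.12 (SE 0.24, adjusted p = 0.0051), and NMI by 0.73. SP140 also rose by 1.08 in the EZH2 mutant, a call lost without EZH2 mutant replicate 2. The NMI call was lost without any KMT2D mutant library or wild type replicate 2. UBE2L6, the conjugating enzyme for ISG15, rose by 0.49 in the double mutant (lost without wild type or double mutant replicate 2), and PML by 0.66 (lost without wild type replicate 2 or 3 or double mutant replicate 1 or 2). TDRD7 had 1 count in the EZH2 mutant and 1 in the double mutant against 39 in the wild type, 18.4-fold lower (95% counting interval 3.11 to 744) and 29.4-fold lower (4.98 to 1192). The first of these calls was lost without either EZH2 mutant library. TDRD7 could pass the filter only through lines where it is high, so both calls support nothing.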

How the data were processed

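MARS-seq libraries of 4 OCI-Ly7 lines were analysed from 1 deposited table of gene counts (unnormalised whole numbers, which the authors call corrected without saying for what). Per the submitters' processing notes, the tools were STAR 2.7.0f, cutadapt 1.15, Trim Galore 0.6.0, FastQC and DESeq2, whose roles are not stated. The genome build, the annotation and the strand used for counting are not given in the sources used here. Columns were matched to samples by name, and columns named DM were taken as the double mutant. There were 12 samples in the series, of which EZH2 mutant replicate 3 is not analysed here. No 2 libraries held identical counts. The labels do not say that replicates came from separate cultures, so p-values measure the spread between these libraries, which may be technical.

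Counts were filtered with filterByExpr (minimum count 10), scaled by TMM factors and fitted over all 11 libraries with edgeR 4.0.16 (robust quasi-likelihood test, R 4.3.3). P-values were adjusted over all 8813 genes by the Benjamini-Hochberg method, and calls used 0.05. The script was tested on simulated data. Of the 28278 genes 13188 were at 0 in every library. Counting intervals are exact at 95% and cover counting error only, since the sources used here do not say whether a count is a molecule or a read. Alternatives were other scalings and filters, DESeq2 1.42.0, limma-voom (limma 3.58.1), a replicate block, only the groups compared, and leaving out each library. Members and gene lists were chosen with earlier results of these data known.

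Values in every library are given for tested members called in at least 1 comparison against wild type, and for IFITM1. DTX3L and XAF1 are given for some lines only. These last 3 genes were singled out after their values were seen. From the wider lists, up to 3 called genes a list and comparison with the smallest adjusted p are named, with STAT2, IRF9 and JAK1 always; 1 gene this rule names is not reported here. Gene positions and shared transcript ends came from GENCODE 29 (blastn 2.17.0), promoters from RefSeq. The search for shared ends covered 25 of the 40 members. Opposite-strand overlaps with annotated genes were also present for others, among them ISG15, MX1, TRIM22, OAS1, OAS2 and OAS3.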

Additional observations from a re-analysis of the deposited data

Results flagged for a closer look

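A called interaction means that the effect of one mutation differed with the state of the other (edgeR, adjusted p below 0.05 over 8813 genes). The shares called were 7.69% of the 26 tested members and 6.17% of the 81 tested list genes, beside 3.02% of all genes. Members and lists together gave 7 such genes. Among the tested members these were IFITM2 at -2.91 (adjusted p = 2.7e-07) and MX1 at 1.27 (adjusted p = 0.0046) on the log2 scale. Both calls held under all alternatives run for them. In the wider lists, SP140 had an interaction of -2.92 (adjusted p = 0.00061). Its levels were 8.56 ± 1.70 normalised CPM in the wild type, 18.05 ± 3.86 (n = 2) in the EZH2 mutant, 23.5 ± 5.81 in KMT2D mutant libraries and 6.72 ± 2.04 in double mutant libraries (n = 3 otherwise), the same order of lines as for IFITM2. UBA7 had -1.78 (adjusted p = 0.019), a call lost without EZH2 mutant replicate 1, KMT2D mutant replicate 3 or double mutant replicate 3. SP110 had -1.38 (adjusted p = 0.028) and NLRC5 -0.71 (adjusted p = 0.040), lost in 8 and 10 of 20 settings. TRAF6 had 6.38 (adjusted p = 0.035), a fitted value that rests on 0 counts in the EZH2 mutant and is no bound. It was lost in 9 of 17 settings. TRAF6 could pass the filter only through the other lines, so this call supports nothing.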

How the results depend on the processing

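Of 39 calls of members over the 6 comparisons, 19 held under every alternative run, 20 were lost under some and 0 changed sign; of 117 results without a call, 17 gained one somewhere. In the EZH2 mutant against wild type, 11 members were called, and 6 with DESeq2, 7 with only the groups compared, 6 with the abundance trend removed, 5 after thinning, and 6 to 10 without 1 library. Thinning every library to the depth of the shallowest left 1 of 3 calls in the KMT2D mutant, 1 of 2 against the EZH2 mutant and 5 of 11 against the KMT2D mutant. Leaving out 1 library gave 2 to 3, 1 to 4 and 5 to 11 in those comparisons and 7 to 10 of 10 in the double mutant against wild type. Without a filter 4 members were called between the double and EZH2 mutants, and with the replicate block 1. Thinning and removing the abundance trend were chosen after seeing the data; thinning leaves fewer counts, and the cause of the other changes was not tested.

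Same-numbered libraries of different lines showed no shared deviation (15 pairs, r from -0.29 to 0.38, 5 above 0.1). Pairs with different numbers were similar (30 pairs, r from -0.38 to 0.29, 10 above 0.1). Deviations within a line of 2 or 3 libraries cancel, so this check cannot decide whether the numbers pair the samples. With a replicate block, 7, 2 and 8 members were called against wild type. The double mutant then had 1 and 11 against the single mutants, and the interaction 2. Over all genes, 2846, 675, 2087, 202, 3695 and 266 calls (in the order above, then interaction) became 1760, 362, 1144, 103, 2308 and 124 after thinning. Without a filter the fourth and last were 381 and 482, and with only the groups compared the fourth was 92. Without 1 library the lowest were 1779 (EZH2 mutant replicate 1), 339 (KMT2D mutant replicate 3), 1381 (double mutant replicate 1), 99 (double mutant replicate 3), and 147 for the interaction (EZH2 mutant replicate 2). Without 1 library the log2 difference from wild type of PSMB8 to PSMB5 in the EZH2 mutant ran from -0.38 to -0.13, of PSMB9 to PSMB6 from -0.42 to -0.38, and of PSMB10 to PSMB7 in the double mutant from -0.042 (wild type replicate 2 left out) to 0.15. Depth limits the low members: the floor of 3 counts is up to 2.68 CPM in a library. Larger differences also went without a call, such as IFIH1 at 8.60 normalised CPM in the wild type and 3.99 in the EZH2 mutant.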
